A study of Mus musculus with 2 samples.

Results

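Lyve1 and Folr2 resident macrophages of mouse brown adipose tissue made up 117 of the 4295 cells kept from 2 single-cell RNA libraries, 32 of 2279 in the control library and 85 of 2016 in the AdipoΔ/Δ library. They were chosen by measured values. A kept cell had at least 200 detected genes and at most 10% of its UMIs (unique molecular identifiers, each standing for 1 captured RNA molecule) from mitochondrial genes, which 4295 of 4978 barcodes met. A member also had at least 3 UMIs of C1qa, C1qb and C1qc together, at least 2 UMIs of Folr2, Lyve1 and Cd209f together (the anchor sum), at most 3 of Gpnmb and Trem2 together, and 0 of Cd79a and Cd3e. Levels of these genes describe that choice and support nothing.

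The study asked how leukocytes of brown adipose tissue change when adipocytes lose ATGL, the triglyceride lipase encoded by Pnpla2. Each library held CD45+ DAPI- cells sorted from digested tissue of male C57Bl/6 mice, and the number of mice behind a library was not stated. Both groups carried AdipoQ-CreERT2, a tamoxifen-activated recombinase driven by an adipocyte promoter, and ATGLfl/fl alleles. Controls received vehicle and AdipoΔ/Δ mice received tamoxifen at 10 mg/ml, in intraperitoneal injections of 200 uL every 2 days for 1 week, with 2 weeks of rest before tissue was taken. Age was 16 weeks by the labels and lower by the legends of the paper. With 1 library per condition, differences between conditions and differences between libraries cannot be told apart, and no test between conditions was possible. Intervals are 95% intervals that cover counting error only.

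FOLR2 is a folate receptor and LYVE1 a hyaluronan receptor, and macrophages that carry them are found in many tissues, often beside blood vessels. They take up macromolecules, debris and dying cells through scavenger receptors and depend on signals through the CSF1 receptor. Such macrophages are regarded as long-lived residents of adipose tissue, but the residency of these members was not tested. By labelling CCR2+ cells, the paper found that the macrophage pool of this tissue as a whole needs constant renewal from monocytes. C1q, the first component of the classical complement pathway, is made by most tissue macrophages, whereas Gpnmb and Trem2 mark lipid-associated macrophages.

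Members were a larger share of kept cells in the AdipoΔ/Δ library. They were 1.40% (0.962 to 1.98, exact binomial interval) of 2279 control cells and 4.22% (3.38 to 5.19) of 2016 AdipoΔ/Δ cells, a ratio of 3.003 (1.98 to 4.66). This larger share came with a larger share of all C1q cells, which are kept cells with at least 3 C1q UMIs and 0 of Cd79a and Cd3e. C1q cells were 94 of 2279 control cells (4.12%) and 325 of 2016 AdipoΔ/Δ cells (16.1%), a ratio of 3.91 (3.10 to 4.97). Among C1q cells, members were 34.04% (24.6 to 44.5) in the control library and 26.2% (21.5 to 31.3) in the AdipoΔ/Δ library. The ratio of 0.768 (0.506 to 1.19) spanned 1, so no difference in this share was detectable at this depth.

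C1q cells outside the members fell into other C1q cells, with an anchor sum under 2 and at most 3 Gpnmb and Trem2 UMIs, and Gpnmb and Trem2 cells, with more than 3. Other C1q cells numbered 60 and 174, or 2.63% and 8.63% of kept cells, a ratio of 3.28 (2.43 to 4.47). Gpnmb and Trem2 cells numbered 2 and 66, or 2.13% and 20.3% of C1q cells, and their share of kept cells had a ratio of 37.3 (9.93 to 314). Before thinning, members and other C1q cells thus differed between the libraries by similar factors, and Gpnmb and Trem2 cells by a larger one. Depth differed between the libraries, so each cell was also thinned at random to 2000 UMIs before the rule was applied, which left out 620 control and 554 AdipoΔ/Δ kept cells that were shallower. Thinned, members were 19 of 1659 cells (1.15%) and 63 of 1462 cells (4.31%), a ratio of 3.76 (2.22 to 6.66), and 35.2% and 30.0% of C1q cells. Gpnmb and Trem2 cells were then 1 of 54 and 14 of 210 C1q cells, a ratio of 3.60 (0.548 to 152) that spanned 1. Their share of kept cells had a ratio of 15.9 (2.42 to 672), beside 4.44 (3.03 to 6.67) for other C1q cells. The Gpnmb and Trem2 limit stayed at 3 UMIs, so thinning moved cells between groups. At this depth the AdipoΔ/Δ library had 65 Gpnmb and Trem2 cells unthinned and 14 thinned. Its other C1q cells numbered 112 unthinned and 133 thinned.

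**Figure D1:**
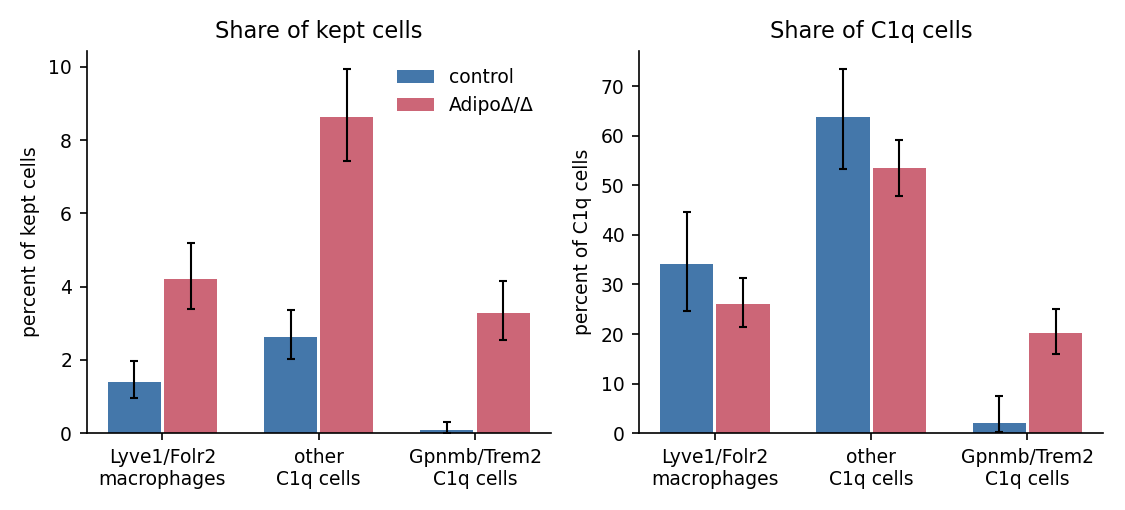
Share of kept cells (left, percent) and of C1q cells (right, percent) held by members, other C1q cells and Gpnmb and Trem2 C1q cells in the control and AdipoΔ/Δ libraries, with exact binomial 95% intervals as error bars. Members were 1.40% and 4.22% of kept cells, and 34.04% and 26.2% of C1q cells.

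Pnpla2 was read in members of both libraries, with too few UMIs to tell whether its level differed. Members are leukocytes, and the recombinase is driven by an adipocyte promoter. Pnpla2 (ENSMUSG00000025509, chr7:141455198-141460743, GRCm38) had 3 UMIs in control members and 11 in AdipoΔ/Δ members, or 21.9 (4.52 to 64.1) and 22.3 (11.2 to 40.0) CPM, the UMIs of a gene in the members together, scaled so that each library's members have the same total. Xist had 0 UMIs in members of both libraries and Ddx3y 11 and 21 in these mice labelled male.

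The label was checked against the macrophage genes that the rule did not use. Ptprc, which encodes CD45, stood at 482 and 364 CPM in control and AdipoΔ/Δ members. Adgre1, which encodes F4/80, stood at 468 and 429 CPM, and Csf1r, the CSF1 receptor gene, at 1154 and 1495 CPM. Mertk, a receptor for dying cells, stood at 65.8 and 65.0 CPM and Cd68, a lysosomal glycoprotein, at 219 and 406 CPM. Members of both libraries thus carried macrophage genes. LYVE1 also marks lymphatic endothelium, but of 6 lymphatic endothelial markers (Prox1, Flt4, Pdpn, Ccl21a, Mmrn1, Reln) 0 had a UMI in control members, which allows up to 21.9 CPM, and Prox1 alone, with 2 UMIs, in AdipoΔ/Δ members.

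Among the marker genes, Pf4, a platelet factor chemokine that the rule did not use, was read in nearly every member. Pf4 (ENSMUSG00000029373, chr5:90772435-90773383) stood at 3295 (2998 to 3614) CPM in control members, with a UMI in 32 of 32, and at 4424 CPM (4240.0 to 4614) in AdipoΔ/Δ members, with a UMI in 83 of 85. Of the rule's own genes, Folr2 (ENSMUSG00000032725, chr7:101839988-101857194) stood at 1447 and 1680 CPM, Cd209f (ENSMUSG00000051906, chr8:4102787-4105835), a C-type lectin gene, at 606 and 739 CPM, and C1qa (ENSMUSG00000036887, chr4:136895917-136898803) at 3317 and 4107 CPM. Lyve1 (ENSMUSG00000030787, chr7:110850607-110863239) stood at 336 CPM in control members and 859 CPM in AdipoΔ/Δ members, which the choice of members may shape. Cd209 family genes are similar in sequence, so that reads of 1 may be counted for another.

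At the threshold, 4 control and 12 AdipoΔ/Δ members had an anchor sum of 2, with Pf4 at 3985 (2708 to 5657) and 3503 (3023 to 4038) CPM. Just outside, 10 control and 28 AdipoΔ/Δ other C1q cells had an anchor sum of 1, with Pf4 at 3870 (3224 to 4608) and 1249 (1085 to 1429) CPM. Cells with an anchor sum of 0 numbered 50 and 146, with Pf4 at 1152 and 782 CPM. The step in Pf4 fell between sums of 1 and 2 in the AdipoΔ/Δ library and between 0 and 1 in the control library. At the Gpnmb and Trem2 limit, 2 control and 29 AdipoΔ/Δ members had a sum of 1 to 3, and 19 AdipoΔ/Δ cells and 0 control cells went over it with an anchor sum of at least 2. A further 13 control and 57 AdipoΔ/Δ barcodes met the rest of the rule but not the mitochondrial limit, with Pf4 at 2484 and 3773 CPM.

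AdipoΔ/Δ members were deeper. Members held 136869 control and 492332 AdipoΔ/Δ UMIs, with a median of 3302 (896 to 19457) and 5538 (649 to 17580) per cell and a median of 1236 and 1915 detected genes. The deepest control member held 14.2% of the control members' UMIs, and the 5 deepest held 38.1%, against 3.57% and 15.3% in AdipoΔ/Δ members. Control values thus leaned on few cells. Mitochondrial genes took a median of 4.27% and 5.23% of a member's UMIs, above the 1.67% and 2.30% of kept cells. The paper's limit of 2%, applied to these barcodes, left 1336 and 898 of all barcodes, fewer than the cells it kept, and 4 control and 10 AdipoΔ/Δ members. The cause was not tested. Gm42418, a gene model that overlaps ribosomal RNA, took 15.1% and 9.72% of the members' UMIs. Values at equal depth, without the deepest members and at lower mitochondrial limits are given beside several results below. The libraries shared 4 barcodes, 0 of them in members, and Scrublet marked 8 control and 6 AdipoΔ/Δ barcodes as doublets, again 0 of them members.

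UMIs of the marker genes in T and B cells, which free RNA or mixed barcodes could give, were read in few such cells of the control library and in more of the AdipoΔ/Δ library. In T cells, whose median depths were 4449 UMIs in the control library and 5347 in the AdipoΔ/Δ library, Folr2 had a UMI in 1.33% and 1.74% of cells, Lyve1 in 0.332% and 0.870%, and Pf4 in 0.664% and 6.09%. In B cells, at medians of 1879.5 and 2340, Folr2 had a UMI in 0 of 258 and 1 of 97 cells, and Pf4 in 1.16% and 10.3%. C1qa had a UMI in 1.33% and 8.26% of T cells and C1qb in 1.33% and 10.4%, and 3 of 301 and 5 of 230 T cells had a C1q sum of at least 3. Most of these UMIs sat in 1 T cell of each library, with 19 of 22 and 20 of 23 for Folr2 and 43 of 51 and 139 of 229 for C1qa. Which source gave them was not tested. Members had a Folr2 UMI in 96.9% and 97.6%. Retnla, S100a8, S100a9 and Ighm were read in more T cells, with a UMI in 12.6%, 37.2%, 42.2% and 50.8% of control T cells and in 43.0%, 13.5%, 17.8% and 56.1% of AdipoΔ/Δ T cells. Ighm UMIs in 68.8% and 76.5% of members should be read beside those shares, and so should S100a8 and S100a9 UMIs outside the cells described next.

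A few members, mostly in the control library, also carried UMIs of NK cells or neutrophils. NK cell markers (Nkg7, Gzma, Klrb1c, Ncr1, Klre1, Prf1) were detected for 6 of 6 genes in control members, at 606 (483 to 752) CPM with Nkg7 highest, and for 4 of 6 in AdipoΔ/Δ members, at 26.4 CPM with Klrb1c and Klre1 at 0. Neutrophil markers summed to 4113 and 1588 CPM, with S100a9 highest in both libraries and Ly6g at 1 and 0 UMIs. These UMIs sat in few cells: 5 control members and 0 AdipoΔ/Δ members had at least 5 NK marker UMIs, and 1 control and 1 AdipoΔ/Δ member had at least 100 UMIs of S100a8 and S100a9 together. The deepest control member, with 19457 UMIs, held 38 NK marker UMIs, 74 of Ccl5 and 28 of Top2a, Mki67 and Stmn1 beside 52 of C1q, and the member with neutrophil UMIs held 423 of S100a8 and S100a9 beside 99 of C1q. Scrublet marked 0 of these 7 cells. Whether they are doublets was not tested. Values without them, a choice made after seeing the data, are given below beside several results.

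Markers of other cell types were low for most types, but not for monocytes. T cell markers summed to 36.5 and 10.2 CPM (4 of 7 and 2 of 7 detected, with Cd3g, Trac and Cd8a at 0 in both libraries, and Lck and Trbc2 highest). B cell markers summed to 555 and 565 CPM (5 of 6 and 3 of 6), of which Ighm gave 64 of 76 and 252 of 278 UMIs. Dendritic cell markers summed to 73.1 and 87.3 CPM (2 of 6 and 3 of 6, with Cd209a highest), and Flt3, Clec9a and Ccr7 were at 0. Most UMIs of these lists thus came from Ighm, which was also read in T cells. Monocyte markers summed to 760 and 638 CPM (4 of 7 and 7 of 7, with Ccr2 highest), and Ccr2, at 438 and 510 CPM, was near the level of Adgre1. Adipocyte markers summed to 175 and 75.2 CPM (6 of 7 and 5 of 7, with Car3 and Cfd highest and Ucp1 at 0), and erythroid markers to 73.1 and 10.2 CPM (3 of 5 in both, with Hbb-bs highest). Blood endothelial, fibroblast and mural markers had 1, 4 and 3 UMIs in control members and 4, 4 and 3 in AdipoΔ/Δ members, with Cdh5, Kdr, Col1a1, Pdgfra and Myh11 at 0.

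Beside other C1q cells of the same library, members had higher levels of Fcna, Ccl8, Ednrb, Cd209g and Clec10a in both libraries. The rule chose these cells, so the comparison is a description. Of 2156 genes described in the control library (at least 20 UMIs over both cell groups), 240 (11.1%) were at least 2-fold higher in members and 157 (7.28%) at least 2-fold lower. Of 6854 genes in the AdipoΔ/Δ library, 722 (10.5%) were higher and 506 (7.38%) lower. Over genes with at least 100 UMIs, 105 of 2484 were at least 2-fold higher in both libraries and 51 lower.

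Fcna (ENSMUSG00000026938, chr2:25624666-25628030), which encodes ficolin A, a soluble lectin that starts the complement lectin pathway, stood at 175 CPM in control members against 5.37 in other C1q cells. In the AdipoΔ/Δ library it stood at 319 against 5.03 CPM, and the ratios were 32.7 (5.33 to 1343) and 63.4 (26.6 to 198). Ccl8 (ENSMUSG00000009185, chr11:82115185-82116799), a chemokine gene, stood at 679 against 43.0 and at 323 against 11.1 CPM, ratios of 15.8 (7.70 to 37.7) and 29.2 (15.9 to 59.7). Both genes thus had few UMIs in other C1q cells of both libraries. Ednrb (ENSMUSG00000022122, chr14:103814625-103844402), an endothelin receptor gene, stood at 526 against 37.6 and at 571 against 9.05 CPM, ratios of 13.997 (6.46 to 36.1) and 63.1 (32.8 to 139). Cd209g (ENSMUSG00000079168, chr8:4134098-4137707), a lectin gene of the same family as Cd209f, had 27 UMIs in control members and 0 in other C1q cells, at least 12.2-fold higher, and 193 against 2 in the AdipoΔ/Δ library, a ratio of 195 (53.2 to 1621). Clec10a (ENSMUSG00000000318, chr11:70156197-70170834), a galactose-binding lectin gene, had ratios of 10.8 (6.73 to 18.1) and 10.7 (8.37 to 13.9).

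A further 10 genes completed the 15 most raised in both libraries. C4b, a complement component gene, had ratios of 10.5 and 15.9 in the control and AdipoΔ/Δ library, Cd209d 13.6 and 32.9, and Mmp9, a gelatinase gene, 11.9 and 9.70. Fcgrt, the neonatal Fc receptor gene, had ratios of 6.24 and 7.27, Ninj1, a plasma membrane rupture protein gene, 12.6 and 6.12, and Zbtb20, a transcription factor gene, 4.93 and 4.57. Fxyd2, Tns1 and Arhgef3 had ratios of 8.16, 7.82 and 21.8 in the control library and 19.5, 7.48 and 5.27 in the AdipoΔ/Δ library, and Rcn3 was at least 9.53-fold higher in the control library, with 0 UMIs in other C1q cells, and had a ratio of 28.3 (12.5 to 79.3) in the AdipoΔ/Δ library. Each of these 15 genes was thus over 4-fold higher in members of both libraries.

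Fn1 was the gene lowest in members by the less extreme library. Fn1 (ENSMUSG00000026193, chr1:71585520-71653200), which encodes fibronectin, stood at 87.7 CPM in control members against 1305 in other C1q cells, and at 130.0 against 2037 in the AdipoΔ/Δ library, ratios of 0.0672 (0.0342 to 0.120) and 0.0638 (0.0490 to 0.0819). Plac8, a gene of classical monocytes, had ratios of 0.222 and 0.235, and Ear2, an eosinophil-associated ribonuclease gene, 0.258 and 0.212. Axl, a receptor for dying cells, had ratios of 0.163 and 0.299, Mmp12, a macrophage elastase gene, 0 UMIs against 14 in the control library and a ratio of 0.143 (0.0973 to 0.204) in the AdipoΔ/Δ library. Tnip3, Gngt2, Ramp1, Alcam and Tifab completed the 10 lowest genes, with ratios of 0.0785 to 0.309 in the control library and 0.0800 to 0.321 in the AdipoΔ/Δ library. The interval of Ramp1 in the control library (0.0537 to 1.04) spanned 1.

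**Figure D2:**
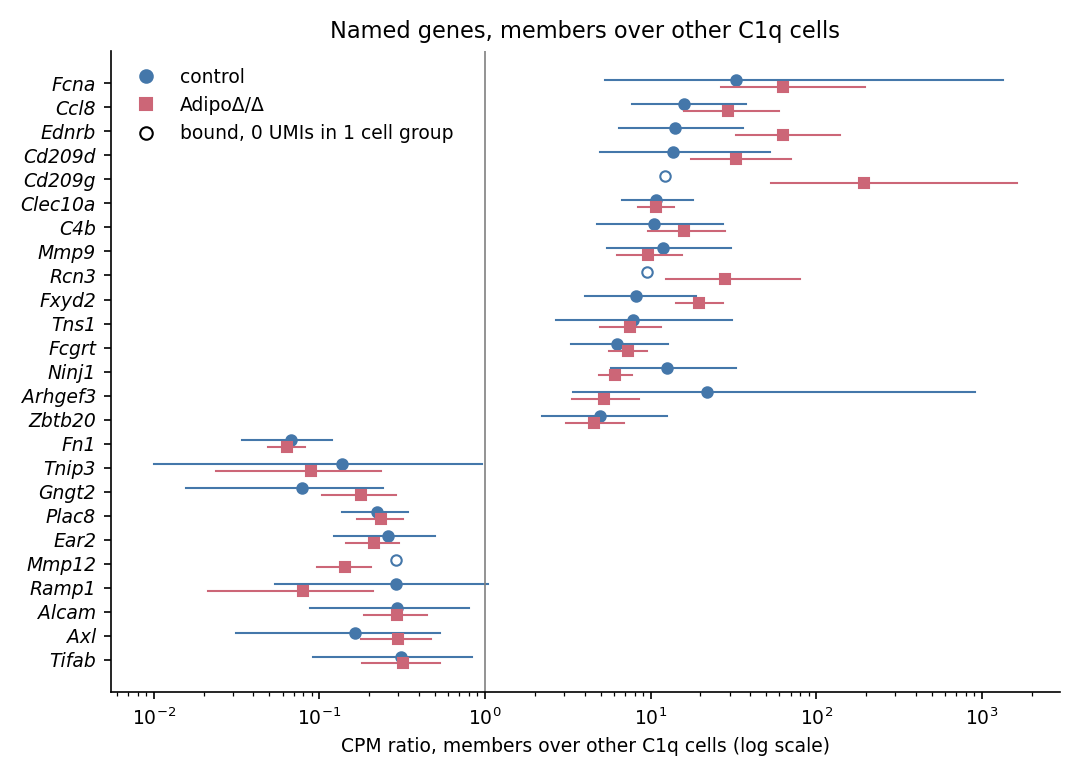
CPM ratio of members over other C1q cells (log scale) for the 15 genes most raised and the 10 most lowered in both libraries, with 95% counting intervals as lines and open symbols for bounds where 1 cell group had 0 UMIs. Fcna stood 32.7-fold and 63.4-fold higher and Fn1 at ratios of 0.0672 and 0.0638.

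Resident macrophage genes were mostly higher in members of both libraries. Rule genes were left out of the lists, and medians are log2 CPM ratios of members over other C1q cells beside 0.03 and 0.05 over all genes described, of which 11.1% and 10.5% were at least 2-fold higher and 7.28% and 7.38% lower. Of the resident macrophage list, 20 of 22 genes described were at least 2-fold higher in the control library (median 1.84) and 23 of 23 in the AdipoΔ/Δ library (median 3.11). The list was chosen with earlier results of these data known, and 6 of its genes are among the 15 above. Selenop, a selenium transport protein gene, stood at 4786 against 1697 and at 6778 against 857 CPM, Mrc1, the mannose receptor gene, at 2002 against 762 and at 2165 against 479.5 CPM, and Cd163, the haptoglobin and haemoglobin scavenger receptor gene, at 321 against 134 and at 512 against 39.2 CPM. Complement genes outside C1q had medians of 1.32 (5 of 6 higher) and 1.22 (5 of 9 higher, 2 lower). Alternative activation genes had medians of 1.67 (4 of 6 higher) and 1.01 (6 of 11 higher, 1 lower). Those of scavenger and endocytic receptors were 0.97 (5 of 10 higher) and 1.17 (7 of 13 higher). Chemokine ligands had medians of 1.10 (6 of 10 higher, 1 lower) and 0.05 (5 of 15 higher, 4 lower). Matrix genes had medians of 0.23 (1 of 6 higher, 1 lower) in the control library and 0.16 (2 of 11 higher, 5 lower) in the AdipoΔ/Δ library. Cell cycle genes had a median of 2.29 in the control library (3 of 4 higher), where mixed members carried such UMIs, and of -1.73 in the AdipoΔ/Δ library (8 of 14 lower), and iron handling genes -0.12 and 1.17. Maf, a transcription factor gene of mature macrophages, had ratios of 3.74 and 3.49.

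Monocyte genes and MHC class II genes pointed the other way. Monocyte genes had medians of -1.03 (1 of 8 higher, 5 lower) and -1.79 (0 of 11 higher, 6 lower), beside 7.28% and 7.38% of all genes lower, and Ccr2, the monocyte chemokine receptor gene, stood at 438 against 1004 and at 510 against 863 CPM. MHC class II genes had medians of -0.75 (3 of 7 lower) and -0.73 (3 of 10 lower), with Cd74, the invariant chain gene, at 9454 against 15473 and at 9863 against 14736 CPM. Lipid uptake and storage genes had a median of 0.32 in the control library and -0.71 in the AdipoΔ/Δ library. Lpl, the lipoprotein lipase gene, stood at 329 against 634 CPM in the control library and at 703 against 2189 CPM in the AdipoΔ/Δ library. Members thus carried less Lpl than other C1q cells in both libraries.

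The share of cells with a UMI gave a similar picture for genes the rule did not use. Gas6, the bridging ligand of MERTK and AXL, had a UMI in 84.4% of control members against 21.7% of other C1q cells, and in 78.8% against 13.2% in the AdipoΔ/Δ library. Igfbp4, which binds insulin-like growth factors, had a UMI in 78.1% against 21.7% and 84.7% against 13.2%. Members and other C1q cells differed in median depth (3302 and 2390 UMIs in the control library, 5538 and 4032 in the AdipoΔ/Δ library). Thinned to 2000 UMIs, with 10 control and 12 AdipoΔ/Δ shallower members left out, Gas6 had a UMI in 81.8% against 21.2% and 64.4% against 5.36%, and Igfbp4 in 59.1% against 15.2% and 71.2% against 8.93%. Ednrb, Clec10a, F13a1, Fxyd2, Frmd4b, Wwp1 and Pf4 were also among the 10 genes whose shares differed most in both libraries, and each had a higher share in members, thinned or not.

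Promoters of the genes raised in members were read for letters of macrophage factors. Windows ran from 250 bases before to 50 after a start site (RefSeq, GRCm38.p6), and 11 of the 15 genes had at least 1, with 14 windows in all. The MAF half-element TGCTGAC, which reads GTCAGCA on the other strand, was in 2 of the 14 promoter windows (14.3%), 1 of Fcna and 1 of the 4 of Arhgef3, against 4.67% of all 32851 windows. The PU.1 letters GAGGAAGT, which read ACTTCCTC on the other strand, were in 0 of 14, against 3.20% of all windows. Of 10 windows of 8 of the lowest genes, 1 had the MAF letters and 2 the PU.1 letters. The windows with a MAF match are shown with the match in capitals, Fcna from chr2:25627925-25628224 (minus strand) and Arhgef3 from chr14:27143743-27144042 (plus strand). A match is a description of letters and no evidence of binding.
Fcna: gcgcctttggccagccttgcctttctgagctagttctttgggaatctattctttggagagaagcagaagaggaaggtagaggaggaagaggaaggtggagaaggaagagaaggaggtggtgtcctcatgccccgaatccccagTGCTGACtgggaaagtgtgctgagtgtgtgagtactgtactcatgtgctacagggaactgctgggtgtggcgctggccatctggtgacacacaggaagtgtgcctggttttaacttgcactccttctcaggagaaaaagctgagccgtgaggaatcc
Arhgef3: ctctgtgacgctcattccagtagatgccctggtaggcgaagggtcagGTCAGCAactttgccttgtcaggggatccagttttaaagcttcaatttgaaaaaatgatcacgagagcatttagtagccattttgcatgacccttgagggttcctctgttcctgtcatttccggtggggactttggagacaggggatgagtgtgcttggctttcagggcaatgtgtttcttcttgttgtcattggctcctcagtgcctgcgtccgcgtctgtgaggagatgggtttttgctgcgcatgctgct

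Beside the 66 Gpnmb and Trem2 cells of the AdipoΔ/Δ library, members were low in lipid genes. The rule set these groups apart by Gpnmb and Trem2, which mark lipid-associated macrophages, so the comparison is a description of that choice. Median depth was 5538 UMIs in members and 12987.5 in Gpnmb and Trem2 cells, and the comparison was not repeated at equal depth. The control library had 2 such cells and was not compared. Of 6588 genes described, 1285 (19.5%) were at least 2-fold higher in members and 661 (10.0%) at least 2-fold lower, with a median log2 ratio of 0.18. Lipid uptake and storage genes had a median of -1.85, with 13 of 18 lower. Lgals3, which encodes galectin-3, stood at 839 CPM in members against 8722, Fabp5, a fatty acid binding protein gene, at 56.9 against 1310, and Spp1, the osteopontin gene, at 6.09 against 243 CPM. Abca1, a cholesterol exporter gene, stood at 236 CPM in members against 11.9, and Selenop at 6778 against 779. The resident macrophage list had a median of 3.18 (23 of 24 higher), and lysosomal genes -0.62 (9 of 22 lower).

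Members differed among themselves in which anchor genes they showed. Folr2 had a UMI in 31 of 32 control and 83 of 85 AdipoΔ/Δ members, Cd209f in 16 (50%) and 46 (54.1%), and Lyve1 in 13 (40.6%, 23.7 to 59.4) and 54 (63.5%, 52.4 to 73.7). Folr2, Lyve1 and Cd209f were seen together in 18.8% (7.21 to 36.4) and 44.7% (33.9 to 55.9) of members, and Folr2 alone in 31.2% and 27.1%. These genes chose the members, so the shares describe the choice. Thinned to 2000 UMIs, Lyve1 had a UMI in 7 of 22 control (31.8%, 13.9 to 54.9) and 32 of 73 AdipoΔ/Δ members (43.8%, 32.2 to 55.9), and the anchor genes together in 22.7% and 26.0%. Timd4, a phosphatidylserine receptor gene of long-lived residents, had a UMI in 2 of 32 and 7 of 85 members, Ccr2 in 11 and 39, and Vsig4, a complement receptor gene, in 0 and 2.

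Members without a Lyve1 UMI carried more MHC class II. Lyve1 is a gene of the rule, and members without it were chosen through Folr2 or Cd209f. The split and the correlations below are thus descriptions of the members chosen. Median depth was 4719 UMIs with a Lyve1 UMI and 2641 without in control members, and 4100 and 6197 in AdipoΔ/Δ members. Shallower cells can miss a Lyve1 UMI, and the split was not repeated at equal depth. H2-Aa, H2-Ab1, H2-Eb1 and Cd74 together stood at 22216 CPM in the 13 control members with a Lyve1 UMI against 28973 in the 19 without, and at 14519 in the 54 AdipoΔ/Δ members with against 35191 in the 31 without. Per cell, this sum ran from 472 to 89511 CPM in control members (median 27637) and from 0 to 85360 CPM in AdipoΔ/Δ members (median 22253), so the libraries overlapped over nearly their whole range. Spearman correlations of Lyve1 with this sum across cells of 1 library, which share their depth and total, were -0.42 (n = 32) and -0.44 (n = 85), and -0.27 (n = 22) and -0.44 (n = 73) with Lyve1 thinned. Ccr2 had the opposite sign, with 0.42 and 0.33. The other anchor genes were weaker or mixed in sign, with -0.37 and -0.15 for Cd209f and 0.21 and -0.17 for Folr2. Lyve1 with Ccr2 gave -0.42 in control and -0.16 in AdipoΔ/Δ members. Without the mixed members the summed levels were 24521 against 40712 CPM in control members and 14655 against 35191 CPM in AdipoΔ/Δ members.

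**Figure D3:**
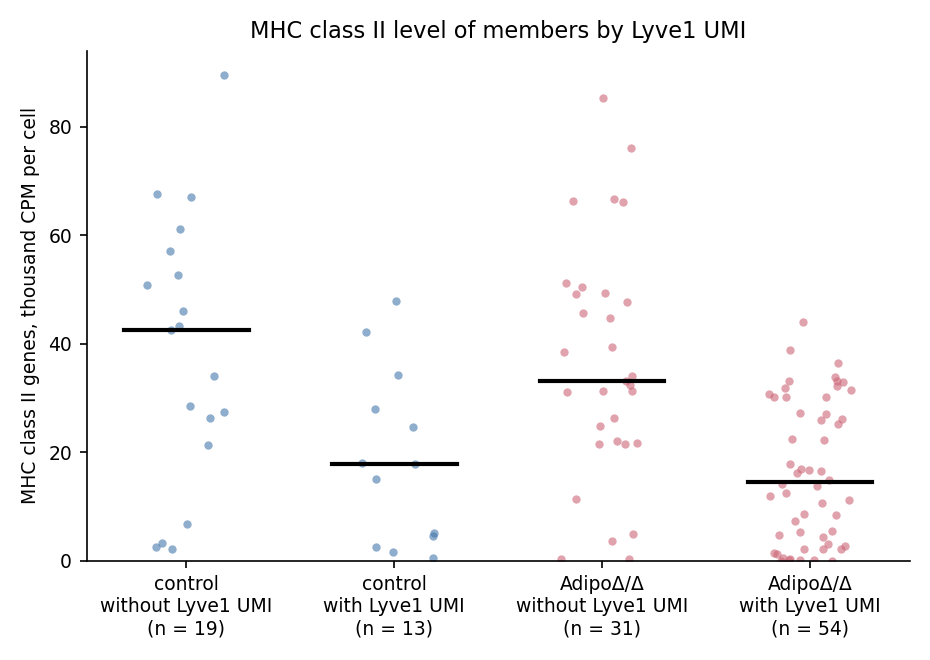
Summed level of H2-Aa, H2-Ab1, H2-Eb1 and Cd74 per cell (CPM / 1000) in members without and with a Lyve1 UMI in each library, with each point a cell and the black line the median. Members without a Lyve1 UMI numbered 19 and 31 and had the higher median in both libraries.

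Some other resident genes were higher beside Lyve1 among members. Of 885 genes described in control members, 74 (8.36%) were at least 2-fold higher with a Lyve1 UMI and 100 (11.3%) lower, and of 3533 in AdipoΔ/Δ members, 288 (8.15%) were higher and 150 (4.25%) lower. The resident macrophage list had medians of 0.52 (7 of 21 higher) and 0.92 (11 of 23 higher), beside -0.13 and 0.07 over all genes described. Ednrb stood at 864 CPM with a Lyve1 UMI against 252 without in control members and at 797 against 214 in AdipoΔ/Δ members, and Fcna at 309.7 against 66.2 and at 455 against 105. Ccr2 stood at 163 against 662 and at 302 against 837 CPM. Of the 19 control members without a Lyve1 UMI, 4 carried at least 5 NK marker UMIs. Without the mixed members, a choice made after seeing the data, 37 of 574 genes (6.45%) were higher and 53 (9.23%) lower with a Lyve1 UMI in control members, and 277 of 3489 (7.94%) were higher and 155 (4.44%) lower in AdipoΔ/Δ members. Ednrb then stood at 969.5 against 131 and at 812 against 214 CPM, Fcna at 343 against 109 and at 462 against 105, and Ccr2 at 202 against 832 and at 292 against 837. The resident macrophage list then had medians of 0.20 (6 of 20 higher) and 0.95 (11 of 23 higher), beside -0.12 and 0.07. Lyve1 is a gene of the rule, so this split only describes the members chosen. In that description Ednrb and Fcna were higher and Ccr2 lower beside Lyve1 in both libraries, with or without those members. Retnla, a secreted marker of alternative activation, was higher with a Lyve1 UMI in control members (16544 against 3747 CPM) but not in AdipoΔ/Δ members (11650 against 12985). Lipid uptake and storage genes had 0 of 7 past 2-fold in control members (median 0.09), and 2 of 6 lower without the mixed members. In AdipoΔ/Δ members, 6 of 13 were at least 2-fold lower with a Lyve1 UMI, among them Fabp4 (46.5 against 256 CPM) and Lpl (415 against 1156 CPM), and Mmp12 had 2 UMIs against 31.

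Between conditions, AdipoΔ/Δ members had higher levels of Tppp3, Lyz1, Lgals3, Cd44, Vim and Plin2 than control members, and these kept their direction without the members that carried NK or neutrophil UMIs. Of the 10 lowest named genes, 2 reversed and 3 had intervals that spanned 1 without those cells, and 5 stayed lower. Among those 5 were S100a8 and S100a9, which helped choose the cells left out, so their values without them are a description only. Of 4288 genes with at least 20 UMIs over both libraries' members, 482 (11.2%) were at least 2-fold higher in AdipoΔ/Δ members and 164 (3.82%) at least 2-fold lower. The median log2 ratio over all genes was 0.15, and a median-of-ratios scaling moved it to 0, so ratios are read relative to that shift. More genes were lower under that scaling and as means of per-cell CPM, as given in the last section. Over 17 alternatives, genes higher ran from 104 to 830 and genes lower from 21 to 356. Leaving out the 6 control and 1 AdipoΔ/Δ members with NK or neutrophil UMIs gave 546 of 3994 genes (13.7%) higher and 181 (4.53%) lower, with a median of 0.18.

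Tppp3 (ENSMUSG00000014846, chr8:105467493-105471526), a tubulin polymerization protein gene, had 3 UMIs in control members and 103 in AdipoΔ/Δ members, or 21.9 and 209 CPM, a ratio of 9.54 (3.18 to 47.0). Of these, 29 UMIs came from 1 cell, and 34 of 85 AdipoΔ/Δ members had at least 1. The ratio was 2.61 after thinning, 2.49 at a mitochondrial limit of 2% and 3.07 as a mean of per-cell CPM. Lyz1 (ENSMUSG00000069515, chr10:117287797-117292868), a lysozyme gene close in sequence to Lyz2, had 8 UMIs in 3 control members and 160 in 19 AdipoΔ/Δ members, a ratio of 5.56 (2.75 to 13.1). Lyz1 lay in few cells, with 58 of 160 UMIs in 1, and its ratio was 1.41 after thinning and at least 10.5 without the mixed members. Lgals3 (ENSMUSG00000050335, chr14:47367751-47386160) stood at 292 (209 to 398) CPM in control members and 839 (760 to 924) in AdipoΔ/Δ members, a ratio of 2.87 (2.07 to 4.08), with a UMI in 19 of 32 and 68 of 85 cells. Vim (ENSMUSG00000026728, chr2:13573927-13582826), the gene of the intermediate filament vimentin, stood at 709 (575 to 865) and 1844 (1726 to 1968) CPM, a ratio of 2.60 (2.11 to 3.24). Lgals3 and Vim were thus broadly read, and without the mixed members their ratios were 4.26 and 2.54. Lgals3 had a ratio of 14.6 without the Gpnmb and Trem2 limit, which let lipid-associated cells in, and Vim 6.71 at a mitochondrial limit of 2%.

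Cd44 (ENSMUSG00000005087, chr2:102811141-102901665), an adhesion receptor gene for hyaluronan like Lyve1, stood at 65.8 and 211 CPM, a ratio of 3.21 (1.63 to 7.22), or 4.85 without the mixed members. Hpgd, which encodes a prostaglandin-degrading enzyme, had a ratio of 3.77 (1.92 to 8.44), and 1.36 after thinning, and Ccl2, a monocyte chemoattractant gene close in sequence to Ccl7 and Ccl12, 2.83 (1.52 to 5.83), with 35 of 112 UMIs in 1 cell and 1.44 without the 5 deepest members of each library. Slc43a2, an amino acid transporter gene, Ms4a6d, of a membrane protein family with similar sequences, and Lmna, the lamin A gene, had ratios of 2.90, 2.81 and 2.72. These ratios rested on 9 to 15 UMIs in control members and ran under the alternatives from 1.92 (anchor sum of at least 1) to 9.95 (thinned) for Slc43a2, from 1.66 (thinned) to 5.15 (without the 5 deepest members) for Ms4a6d, and from 2.02 (mean of per-cell CPM) to 11.8 (mitochondrial limit of 5%) for Lmna.

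Ccl5 (ENSMUSG00000035042, chr11:83525778-83530518), a chemokine gene of NK and T cells, stood at 1001 (840 to 1183) CPM in control members and 36.6 (21.7 to 57.8) in AdipoΔ/Δ members, a ratio of 0.0365 (0.0210 to 0.0599). The deepest control member held 74 of 137 control UMIs, and without the mixed members Ccl5 stood at 42.0 and 37.1 CPM, a ratio of 0.882 (0.291 to 3.58). Ccl5 thus did not differ detectably once those cells were left out. Tmsb10 (ENSMUSG00000079523, chr6:72957347-72958748), a thymosin gene, and Cd52, a glycopeptide gene of lymphocytes and monocytes, had ratios of 0.383 and 0.392 with those cells and 3.37 (2.04 to 5.98) and 2.38 (1.45 to 4.16) without them, a reversal. Hmgb2, a chromatin protein gene of dividing cells, and Set had ratios of 0.242 and 0.524 with and 0.669 and 0.768 without. S100a8 and S100a9, similar alarmin genes of neutrophils, had ratios of 0.314 and 0.424, with 208 of 262 and 215 of 275 control UMIs and 265 of 296 and 400 of 419 AdipoΔ/Δ UMIs in 1 cell of each library. Without the mixed members the ratios of S100a8 and S100a9 were 0.434 and 0.162, and the share of T cells with a UMI of either gene was also higher in the control library, whereas their summed levels in T cells were 153 and 194 CPM for S100a8 and 203 and 206 for S100a9, with 257 of 289 and 255 of 308 AdipoΔ/Δ UMIs in 1 cell. Without the 5 deepest members of each library they reversed to 1.29 and 1.52, because this left out the control cell with neutrophil UMIs (7123 UMIs) and kept the AdipoΔ/Δ cell (6679 UMIs).

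Ccl8, Lars2 and Neat1 were lower in AdipoΔ/Δ members with and without those cells. Ccl8 stood at 679 (548 to 832) and 323 (275 to 377) CPM, a ratio of 0.475 (0.366 to 0.621), and 0.380 without them, but 38 of 93 control UMIs lay in 1 cell, and the ratio was 0.826 as a mean of per-cell CPM and 0.0753 at a mitochondrial limit of 2%. Lars2 (ENSMUSG00000035202, chr9:123366927-123462666), a mitochondrial leucyl-tRNA synthetase gene, stood at 4683 and 2013 CPM with a UMI in 32 of 32 and 83 of 85 cells, a ratio of 0.430 (0.389 to 0.475), and 0.390 without them, but 1.43 among the 4 control and 10 AdipoΔ/Δ members with at most 2% mitochondrial UMIs. Neat1, a nuclear RNA gene, had a ratio of 0.522 (0.390 to 0.703), and 0.386 without them, but 0.894 at a mitochondrial limit of 5%. Gm42418 was likewise higher in control members, but also across that library. It took 9.90% and 6.35% of the UMIs of kept cells in the control and AdipoΔ/Δ library, and 15.6% and 7.08% in other C1q cells. Its part in the values of Lars2 was not tested.

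**Figure D4:**
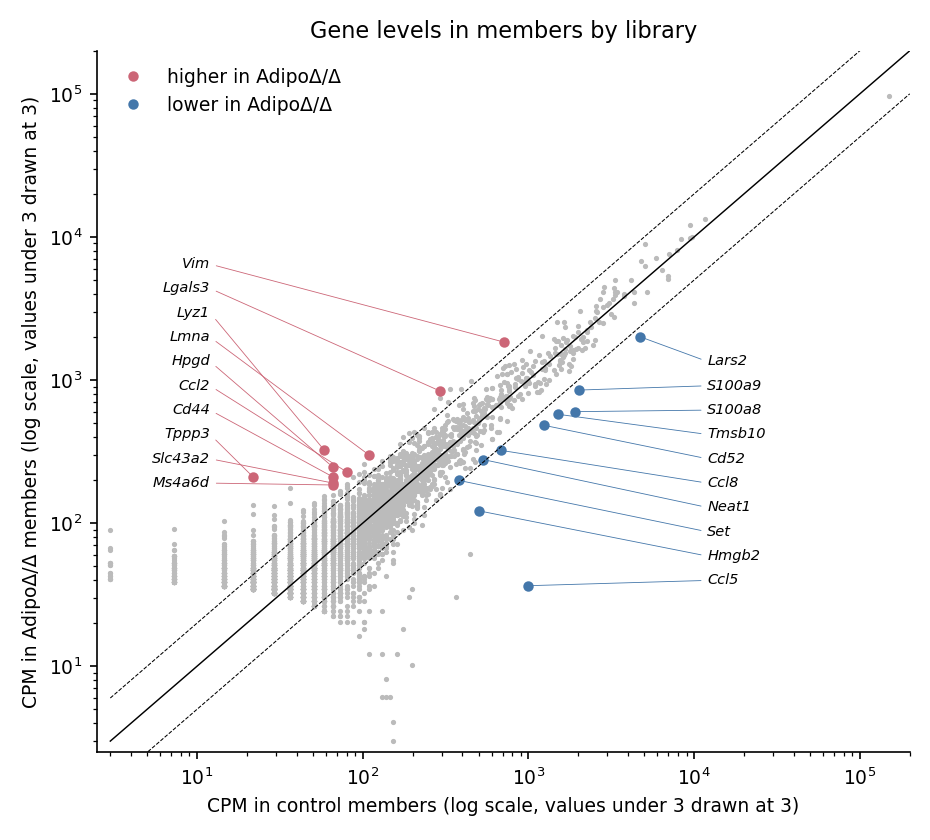
CPM of each of 4288 genes in control members (x axis) and AdipoΔ/Δ members (y axis), both on log scales with values under 3 drawn at 3, a solid line at equal levels and dashed lines at 2-fold. The 10 highest and 10 lowest ratios among genes with at least 100 UMIs are named, from Tppp3 at 9.54 to Ccl5 at 0.0365.

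Of the 10 most abundant genes, Gm42418 and Lyz2 differed over 1.5-fold. The difference in Gm42418 was not confined to members. It stood at 94698 and 47370 CPM in T cells and at 78468 and 50978 CPM in B cells of the control and AdipoΔ/Δ library. Gm42418 stood at 150852 and 97178 CPM in control and AdipoΔ/Δ members, Tmsb4x at 11558 and 13365, Retnla at 9484 and 12169, Cd74 at 9454 and 9863, and Actb at 8278 and 9733. Lyz2, the macrophage lysozyme gene, stood at 5041 and 8955 CPM, a ratio of 1.78 (1.64 to 1.93). The mitochondrial genes mt-Co1, mt-Co3, mt-Atp6 and mt-Co2 completed the 10, with ratios of 1.03 to 1.20. Retnla and Lyz2 were also read in T cells, Lyz2 with a UMI in 39.5% of control and 55.7% of AdipoΔ/Δ T cells. Levels of both genes in members may thus hold RNA from other cells.

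Few resident macrophage genes passed 2-fold between conditions. Of 23 genes described, 1 was at least 2-fold higher and 1 lower (4.35% each, beside 11.2% and 3.82% of all genes), with a median log2 ratio of 0.33 beside 0.15 over all genes. The median depended on the choice of members, from -0.19 without the Gpnmb and Trem2 limit and -0.03 without the mixed members to 1.66 at a mitochondrial limit of 2%. Mrc1 stood at 2002 and 2165 CPM, Selenop at 4786 and 6778, Ednrb at 526 and 571, and Gas6 at 716 and 766. Ltc4s, a leukotriene synthase gene, was the gene higher, with 14 and 127 UMIs and a ratio of 2.52 (1.45 to 4.74), and Cd38, an ectoenzyme gene, the gene lower, with a ratio of 0.410 (0.228 to 0.751). Scavenger and endocytic receptors had 0 of 11 genes past 2-fold in either direction (median 0.33) and Fc gamma receptors 0 of 5 (median 0.24). Without the mixed members the median of scavenger and endocytic receptors was 0.08, below that of all genes described there. Complement genes outside C1q had 0 of 7 (median 0.01), and MHC class II genes 0 of 9 (median 0.06), with H2-Aa at 6948 and 5108 CPM, a ratio of 0.735 (0.682 to 0.793).

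Several lipid genes, Plin2 foremost, stood higher in AdipoΔ/Δ members. Of 13 lipid uptake and storage genes described, 5 were at least 2-fold higher and 0 lower, a share of 38.5% beside 11.2% of all genes, with a median of 0.43. Without the mixed members 4 of 13 were higher, with a median of 0.51. Plin2 (ENSMUSG00000028494, chr4:86648386-86670060), which coats lipid droplets, had 5 and 86 UMIs, or 36.5 and 175 CPM, a ratio of 4.78 (1.97 to 15.1), and 5.55 without the mixed members. Lpl stood at 329 and 703 CPM, a ratio of 2.14 (1.56 to 2.99), and Fabp4 and Cd9 had ratios of 2.19 and 2.27, the interval of Cd9 (0.972 to 6.49) spanning 1. Apoe, the main apolipoprotein of macrophages, stood at 5071 and 6240 CPM, and Cd36, a fatty acid transporter gene, at 979 and 953. Of the 13 genes, 10 had a ratio above 1, and the list's median stayed above that of all genes under each alternative, at 0.27 at the lowest, beside 0 over all genes. Lgals3 is counted in this list too. Summed over the whole list, levels were 7840 and 10452 CPM in control and AdipoΔ/Δ members. In other C1q cells they were 6271 and 7838 CPM, so the higher summed level was not confined to members. Gpnmb and Trem2 UMIs, at a sum of 1 to 3, were read in 2 of 32 control and 29 of 85 AdipoΔ/Δ members. Among the 30 and 56 members with a sum of 0, a choice made after seeing the data, 299 of 2924 genes (10.2%) were higher and 123 (4.21%) lower. Of 12 lipid genes described there, 4 were higher (33.3%) and 0 lower, with a median of 0.56 beside 0.16 over all genes. The ratio of Plin2 was then 6.60 (2.12 to 33.2), that of Lgals3 2.41 (1.66 to 3.61) and that of Lpl 1.54 (1.08 to 2.25). Lysosomal genes had 3 of 21 higher and 0 lower (median 0.48), among them Ctsl and Atp6v1a with ratios of 2.24 and 2.20.

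Counts in the lists below are to be read beside 11.2% of all genes higher and 3.82% lower. Immediate early and heat shock genes had 6 of 18 higher and 0 lower (33.3%, median 0.33). Egr1 had 3 and 66 UMIs, a ratio of 6.12 (2.00 to 30.4), Atf3 2 and 32, a ratio of 4.45 (1.13 to 38.3), and Ier3, Socs3, Hspa1a and Hspa1b ratios of 6.67, 4.87, 2.26 and 2.67. Fos and Jun, also of this list, stood at 672 and 532 and at 278 and 315 CPM, so the immediate early genes did not move together. Macrophage transcription factors had 3 of 12 higher (25%, median 0.28), of which Egr1 and Atf3 are in both lists and Klf4 had a ratio of 2.02. Chemokine ligands had 2 of 12 higher (16.7%), Ccl2 and Cxcl2, and 3 lower (25%), Ccl5, Ccl8 and Ccl12 (median 0.33). Without the mixed members the chemokine median was -0.04, below that of all genes, and Ccl5 had a ratio of 0.882. Ccl12 had 27 and 17 UMIs, a ratio of 0.175 (0.0895 to 0.333).

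The lists in this paragraph had 0 to 2 genes past 2-fold each, beside the same 11.2% and 3.82% of all genes. Efferocytosis genes had 1 of 12 higher, Anxa1, a phospholipid-binding protein gene, at a ratio of 2.41 (median 0.53), and iron handling genes 1 of 13 higher, Slc11a1, and 1 lower, Slc40a1, the iron exporter ferroportin gene, with 13 and 17 UMIs and a ratio of 0.364 (median 0.35). Matrix genes had 2 of 7 higher (28.6%, median 0.57), Ecm1 at a ratio of 2.05 and Mmp12 with 0 and 33 UMIs, at least 3.06-fold higher. Alternative activation genes had 0 of 9 higher and 1 lower, Ccl8 (median 0.11). Growth factors had 1 of 4 higher, Pdgfc (median 0.26), and colony-stimulating factor receptors 0 of 4 past 2-fold (median 0.37). Inflammatory genes had 0 of 5 past 2-fold (median -0.26) and interferon-stimulated genes 0 of 10 (median -0.07). Without the mixed members the medians of iron handling genes and growth factors were -0.005 and 0.0006, below that of all genes. Of catecholamine genes, Maoa, which degrades noradrenaline, had 3 and 31 UMIs and a ratio of 2.87 (0.896 to 14.7), Slc6a2 and Th were at 0 in both libraries, and the median over 2 genes was 0.86. Clec1b, the podoplanin receptor gene, had 0 and 1 UMI, too few for a comparison.

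Cell cycle genes and monocyte genes moved with the mixed members. Cell cycle genes had 5 of 7 lower and a median of -1.96, and -0.40 over 4 genes without those members. Stmn1, a tubulin-binding protein gene of dividing cells, stood at 365 and 30.5 CPM with them and at 199.6 and 30.9 without them, and Mki67 had a UMI in 2 of 32 and 3 of 85 members. Monocyte genes had 0 of 8 higher and 1 lower, Ly6c2, with 19 and 3 UMIs (median 0.24). Without those members 5 of 6 monocyte genes were higher and 0 lower (83.3% beside 13.7% of all genes, median 1.14), among them S100a4 and S100a6 at ratios of 2.26 and 2.07, and Ly6c2 had 1 and 3 UMIs. Ly6c2 thus lay largely in the mixed control members, whereas Stmn1 stayed lower in AdipoΔ/Δ members without them.

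**Figure D5:**
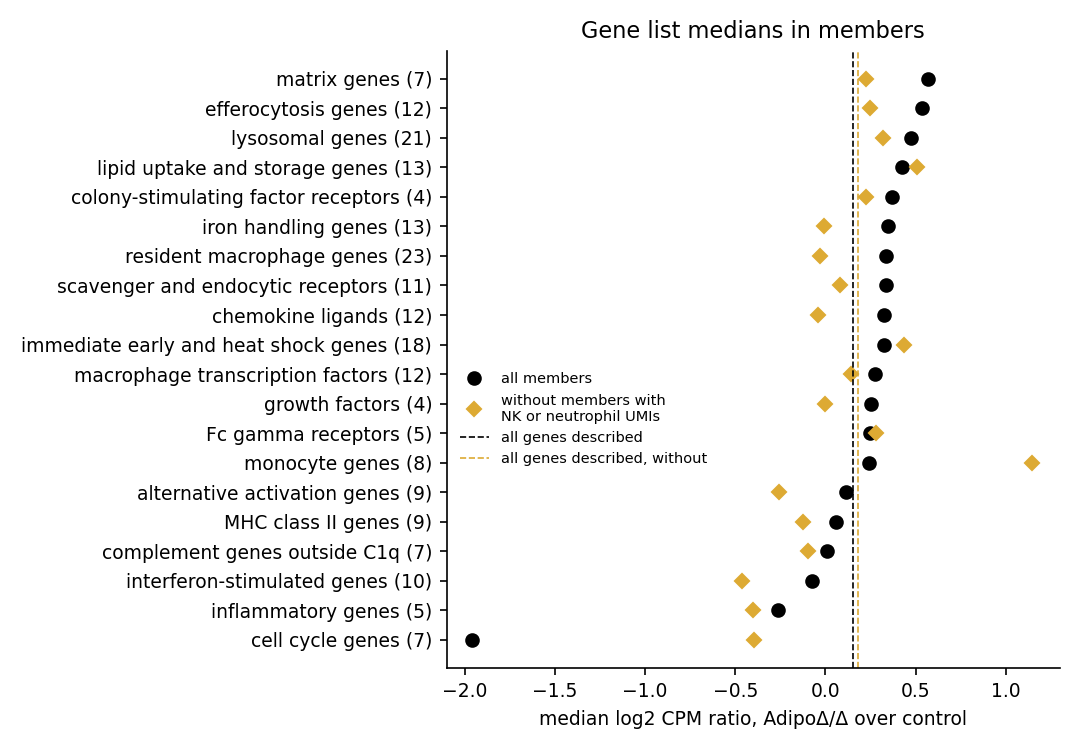
Median log2 CPM ratio of AdipoΔ/Δ over control members for each gene list with at least 4 genes described (number in brackets), over all members (circles) and without the members that carried NK or neutrophil UMIs (diamonds), with dashed lines at the medians of all genes described, 0.15 and 0.18. Cell cycle genes stood at -1.96 and -0.40 and monocyte genes at 0.24 and 1.14.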

How the data were processed

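Both libraries were made with the Chromium 3′ chemistry. The authors deposited UMI count matrices (32285 genes) from Cell Ranger 4.0.0 on build mm10; the reference release was not given in the sources used here. Counts were read with Python 3.11.15, NumPy 2.4.6, SciPy 1.17.1 and pandas 2.3.3, and doublets were called with Scrublet in Scanpy 1.11.5. UMIs were summed over members and given as CPM. Intervals are exact Poisson or binomial (Clopper-Pearson), and ratios have conditional binomial intervals. Levels with 0 UMIs were bounded at 3 counts. No test between conditions was run. Members and lists were chosen with earlier results of these data known. Named genes were the 10 highest and 10 lowest ratios among genes with at least 100 UMIs, without rule, mt-, Rpl, Rps, Gm or Rik genes, and for members over other C1q cells the 15 highest and 10 lowest by the less extreme library. List genes, the 10 most abundant genes and the 10 with the most different shares were also named. Identifiers matched GENCODE M21 for 32158 of 32285 genes. The functions were tested on simulated data. Results of some list genes are not reported here.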

Additional observations from a re-analysis of the deposited data

How the results depend on the processing

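The share of kept cells kept its direction. No difference in the share of C1q cells was detectable in the main setting. The ratio of the share of kept cells ran from 2.43 (mitochondrial limit 5%) to 3.76 (thinned) over 11 alternatives, and that of C1q cells from 0.628 to 0.940, each within the main interval.

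The 482 genes higher and 164 lower became 314 and 87 at a mitochondrial limit of 5%, 139 and 70 at 2%, 153 and 40 after thinning and 104 and 21 with at least 50 UMIs, where fewer genes or UMIs were described, and 830 and 356 without the Gpnmb and Trem2 limit. Genes lower numbered 276 with median-of-ratios scaling and 301 as means of per-cell CPM. Lists with a median above that of all genes numbered 15, and 9 without the mixed members. Thinning moved the share of AdipoΔ/Δ members with a Folr2 UMI from 97.6% to 89.0% and with a Lyve1 UMI from 63.5% to 43.8%, as fewer UMIs were read.

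Of 337 named gene values under alternatives, 5 reversed: Lars2 to 1.43 at a mitochondrial limit of 2%, Tmsb10 to 3.37 and Cd52 to 2.38 without the mixed members, and S100a8 to 1.29 and S100a9 to 1.52 without the 5 deepest members of each library, and 59 moved outside their interval without a reversal. Of 353 list medians, 35 changed side of the median of all genes. Where no cause is named, the cause was not tested. Leaving out the mixed members, lifting the mitochondrial limit and taking Gm42418 and Lars2 out of the total were chosen after seeing the data. No paired analysis was possible because each condition had 1 library, and leaving out a replicate was not possible either. Control members were 32 cells, which limits each ratio.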
